A study of Mus musculus with 6 samples.

Results

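The dendritic-cell identity genes are 9 genes that mark dendritic cells or their subsets: *Flt3*, *Zbtb46*, *Batf3*, *Cd209a*, *Siglech*, *Fscn1*, *Bcl11a*, *Naaa* and *Wdfy4*. They were taken by symbol from a table of read counts for 25701 genes, and all 9 were found there and had enough reads to be tested. The table holds bulk RNA-seq of CD11b+ cells from subcutaneous TC1 tumors, with 3 libraries from MCT2 CO mice and 3 from MCT2 KO mice. Both groups were conditional MCT2 mice on a C57BL/6 background, with loxP sites on both copies of *Slc16a7* (the gene of the lactate and pyruvate transporter MCT2) and a tamoxifen-inducible Cre transgene written as mCre-Tg, whose promoter is not given in the sources used here. The mice were 8 weeks old when MCT2 KO received tamoxifen and MCT2 CO vehicle, so loss of MCT2 and exposure to tamoxifen cannot be told apart. TC1 cells, a mouse lung epithelial tumor line, were placed under the skin of the flank 2 days later in both groups, and the tumors were taken after 24 days. The tumor cells came from the line and not from the mice, so they carried no conditional allele.

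Dendritic cells take up antigen, carry it to lymph nodes and present it to T cells. Conventional dendritic cells grow under the cytokine FLT3 ligand and fall into cDC1, which depend on the transcription factors BATF3 and IRF8 and cross-present tumor antigen to CD8 T cells, and cDC2, which depend on IRF4 and mainly prime CD4 T cells. Plasmacytoid dendritic cells (pDC) depend on TCF4 (E2-2) and BCL11A and make type I interferon, and mature dendritic cells of tumors switch on FSCN1 and the homing receptor CCR7. Many dendritic-cell genes are shared with other cells. *Zbtb46* is also active in endothelium, *Bcl11a* and *Wdfy4* in B cells, *Naaa* in macrophages, and *Fscn1* in fibroblasts and tumor cells.

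The labels call the cells purified macrophages from lung, whereas the methods describe bead-selected CD11b+ cells of flank tumors. All 14 genes of a macrophage list were detected, with summed levels of 7793 to 11736 CPM (read counts brought to a common library size by the TMM method) in MCT2 CO and 7464 to 15748 CPM in MCT2 KO. *Itgam*, which encodes CD11b, had 1 count over the 6 libraries, and 99.1% of its exon bases lie inside the span of another gene, *Gm49368*. None of the exon bases of the 9 dendritic-cell genes lie inside another listed gene. Total counts ranged from 24863611 to 31713704. MCT2 CO replicate 3, MCT2 KO replicate 2 and MCT2 KO replicate 1 were the lowest or the highest of the 6 libraries in 48.1%, 43.1% and 39.0% of the genes tested, compared with 18.0% to 26.8% for the other 3. Of all pairs of replicates, MCT2 KO replicates 1 and 2 differed most (chi-square per degree of freedom 74.8, and 14.9 to 40.2 for the other pairs). The targeted gene *Slc16a7* had 12.8 ± 2.84 CPM (SD, n = 3) in MCT2 CO and 6.18 ± 1.78 CPM in MCT2 KO, with every MCT2 KO library below every MCT2 CO library (adjusted p = 0.370, edgeR quasi-likelihood test).

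None of the 9 dendritic-cell genes passed the call rule between MCT2 KO and MCT2 CO, which asked for 0.05 or less in the adjusted p and 0.58 or more, up or down, in log2 fold change (edgeR quasi-likelihood test over 13485 genes). No gene of the whole table passed either (0% called), and the smallest adjusted p among the 9 was 0.444. DESeq2, run on every gene that had a count, called 0.448% of genes and 0 of the 9. The fitted log2 fold change was below 0 in 8 of the 9 (88.9%), compared with 49.9% of all genes, and the exception was *Wdfy4*. Scaling to the macrophage list put *Wdfy4* at -0.06 but also moved the median of all genes to -0.10, and relative to that median *Wdfy4* stayed above 0 (0.0434). Their median log2 fold change was -0.33, and that of all genes was 0.0004. Before adjustment, 2 of the 9 (22.2%), *Zbtb46* and *Bcl11a*, had a p under 0.05, compared with 9.37% of all genes in either direction and 5.60% with MCT2 KO lower. For 1 of the 9 (11.1%), *Zbtb46*, the MCT2 KO values all lay under those of MCT2 CO. Of all genes, 15.8% had groups that did not overlap, 8.77% with MCT2 KO below and 7.07% with MCT2 KO above. P values measure the spread between these libraries, which may in part be technical. In bulk RNA, fewer dendritic cells in a preparation and less RNA of a gene per cell cannot be told apart. Cells were selected for CD11b, so the values describe the selected cells and not all dendritic cells of the tumors. How much of each dendritic-cell subset, such as cDC1 or pDC, the selection kept was not measured.

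**Figure D1:**
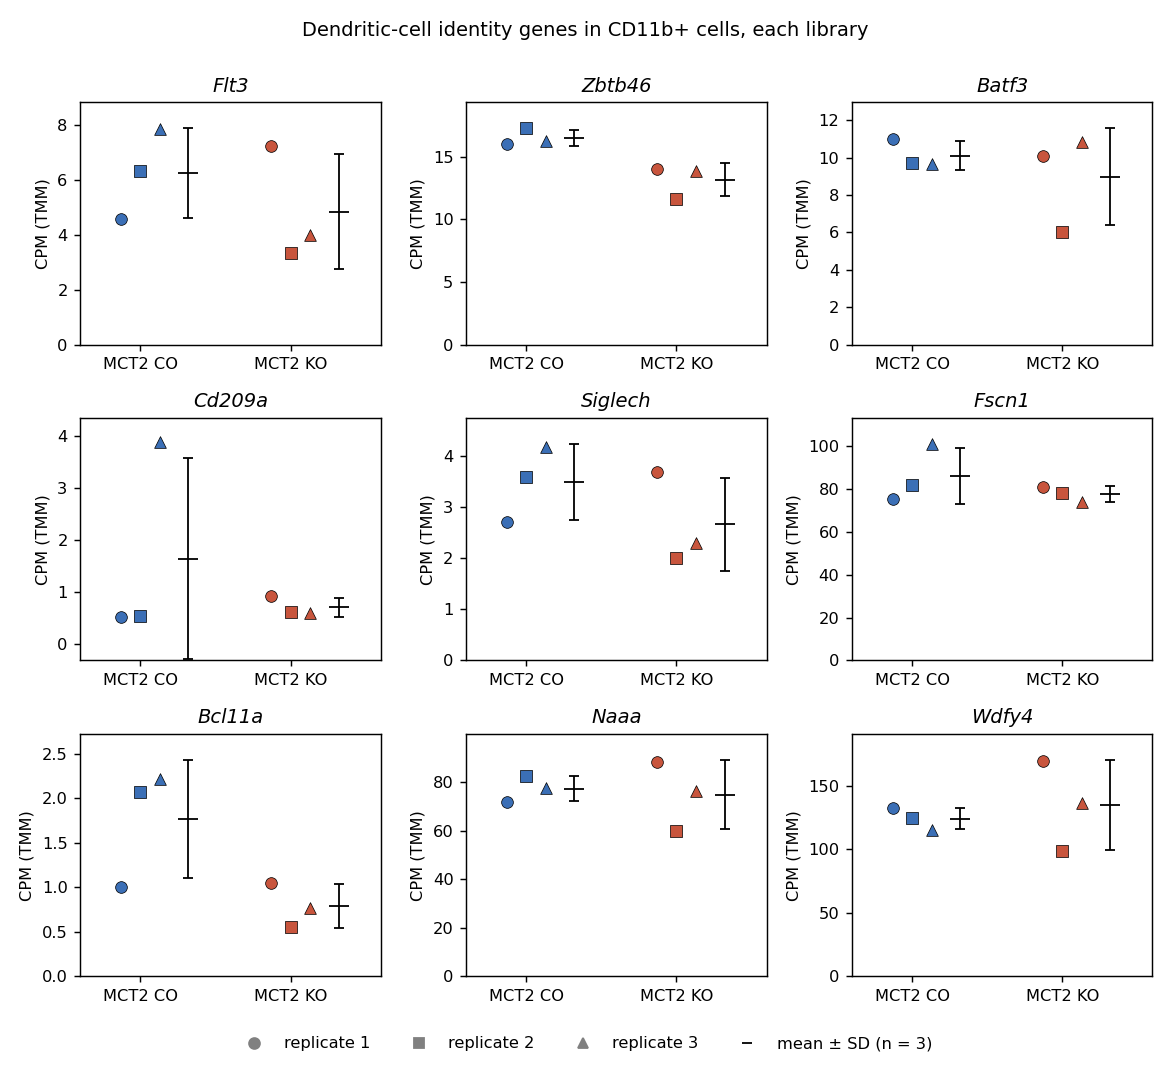
Level of each dendritic-cell identity gene (CPM after TMM scaling, linear axis) in the 3 MCT2 CO (blue) and 3 MCT2 KO (red) libraries, with symbols for replicates and bars for the group mean ± SD. *Zbtb46* is the gene whose groups do not overlap, the high point of *Cd209a* is MCT2 CO replicate 3, and MCT2 KO replicate 2 is the lowest library for 7 of the 9 genes.

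Levels of the 9 genes spanned a wide range. Per kilobase of exon, and averaged over the 6 libraries, *Fscn1* stood at 27.2 ± 3.26 CPM per kb (SD, n = 6), *Naaa* at 20.4 ± 2.61, *Wdfy4* at 12.3 ± 2.25 and *Batf3* at 5.97 ± 1.14. *Zbtb46* followed at 1.74 ± 0.241, *Siglech* at 0.908 ± 0.257, *Flt3* at 0.896 ± 0.298, *Cd209a* at 0.746 ± 0.839 and *Bcl11a* at 0.0969 ± 0.0531 CPM per kb. *Siglech*, *Flt3* and *Cd209a* overlapped in their library ranges and could not be ordered, and the other neighbours in this order did not overlap, although *Cd209a* in MCT2 CO replicate 3 (2.45 CPM per kb) exceeded every value of *Zbtb46*. On the same scale the macrophage genes *C1qa*, a complement component, and *Mertk*, a receptor for dying cells, stood at 1231 ± 324 and 44.8 ± 6.48 CPM per kb, above all 9. The counting took whole gene spans, so intronic reads can add to genes with long introns such as *Wdfy4*, *Bcl11a* and *Zbtb46*. By mean level per kilobase, *Fscn1* stood at percentile 85.9 of the genes tested, *Flt3* at 17.4 and *Bcl11a* at 1.46.

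*Flt3* encodes the receptor tyrosine kinase for FLT3 ligand, carried by dendritic-cell progenitors and conventional dendritic cells. In GRCm38 it occupies chromosome 5, minus strand, from 147330741 to 147400489. *Flt3* had 4.57, 6.31 and 7.83 CPM in MCT2 CO replicates 1 to 3 and 7.21, 3.32 and 3.98 CPM in MCT2 KO replicates 1 to 3. The groups overlapped, with MCT2 KO replicate 1 above 2 of the MCT2 CO libraries. The log2 fold change was -0.37 (standard error 0.32, 95% interval -1.11 to 0.37, adjusted p = 0.747), and it moved from -0.15 without MCT2 KO replicate 2 to -0.77 without MCT2 KO replicate 1. The interval includes both no difference and a difference of 1 log2 unit. The ligand gene, *Flt3l*, had 12, 9 and 15 counts in MCT2 CO and 2, 4 and 5 counts in MCT2 KO. Its counts were too few for the filter, and 97.2% of its exon bases lie inside the span of *Gm45713*, and the table drops reads of such overlaps. Without the filter, *Flt3l* differed by -1.65 log2 units (standard error 0.52, adjusted p = 0.451, edgeR quasi-likelihood test).

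*Siglech*, a lectin receptor on pDC that is also made by some macrophages, lies on the plus strand of chromosome 7, from 55768178 to 55778925. It had 2.7, 3.58 and 4.18 CPM in MCT2 CO and 3.69, 2.00 and 2.29 CPM in MCT2 KO, with MCT2 KO replicate 1 again inside the MCT2 CO range. The fitted difference was -0.40 on the log2 scale (standard error 0.28, 95% interval -1.05 to 0.26, adjusted p = 0.693). It was -0.69 without MCT2 KO replicate 1, -0.22 without MCT2 KO replicate 2 and -0.25 without MCT2 CO replicate 3. The order of the 6 libraries was the same for *Siglech* as for *Flt3*. When the centred log2 CPM of *Flt3* over the 6 libraries was compared with that of each of the other 13484 genes tested, the nearest was *Siglech*, with a root-mean-square difference of 0.0844 log2 units. *Flt3* was also the nearest gene to *Siglech*. The next nearest to *Flt3* were *Rac3* (0.13) and *Gprc5c* (0.143), and the next nearest to *Siglech* were *Adam11* (0.11) and *Nxnl1* (0.113). The points share libraries and the genes are low, so this is a description of 6 libraries.

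The sequences before the transcription starts of *Flt3* and *Siglech* are given because these genes had the most alike profiles. Each is the 250 bases before the RefSeq start on GRCm38.p6, read 5′ to 3′ on the gene's strand, with CpG dinucleotides in capitals. They lie at chr5:147400490-147400739 (minus strand, *Flt3*) and chr7:55767934-55768183 (plus strand, *Siglech*).
Flt3: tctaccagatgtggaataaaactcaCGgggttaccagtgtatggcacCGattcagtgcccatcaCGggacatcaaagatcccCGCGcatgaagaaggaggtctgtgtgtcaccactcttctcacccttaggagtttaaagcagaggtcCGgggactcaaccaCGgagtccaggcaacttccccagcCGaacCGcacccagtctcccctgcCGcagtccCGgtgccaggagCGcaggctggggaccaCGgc
Siglech: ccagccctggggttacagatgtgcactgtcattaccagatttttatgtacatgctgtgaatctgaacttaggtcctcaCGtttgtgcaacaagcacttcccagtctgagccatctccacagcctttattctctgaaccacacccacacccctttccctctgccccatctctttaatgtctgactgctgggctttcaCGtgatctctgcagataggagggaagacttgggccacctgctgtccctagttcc
The *Flt3* window holds 13 CpG and is 59.2% G or C, and 31.8% of 32536 promoter windows hold as many CpG or more. The *Siglech* window holds 2 CpG and is 50.8% G or C, and 28.8% of windows hold as few or fewer. On both strands of both windows there was no match to GAGGAAGT (a PU.1 site, in 2.45% of all windows), GGAA followed after any 2 bases by GAAA (an ETS and IRF composite site, 2.31%), GAAA followed after any 2 bases by GAAA (an interferon response element, 2.98%), TGANTCA (an AP-1 site, the kind BATF3 binds, 6.73%) or CAGCTG (an E-box, the kind TCF4 binds, 13.1%). Over the windows of all 9 genes there was 1 match, an AP-1 site in the *Zbtb46* window, which lies 35038 bases inside the gene as GENCODE M21 draws it. No match says only that these letters are not in the window. Other E-box forms (CANNTG) were not searched, and both windows hold CAGATG, and that of *Siglech* also CACCTG and CACGTG.

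*Zbtb46* encodes a zinc finger repressor that marks committed conventional dendritic cells and is absent from most macrophages. The gene lies on the minus strand of chromosome 2, from 181387762 to 181459426. *Zbtb46* had 16, 17.3 and 16.2 CPM in MCT2 CO and 14.0, 11.6 and 13.9 CPM in MCT2 KO. Every MCT2 KO library was below every MCT2 CO library (p = 0.1 in a two-sided exact permutation test, the lowest value possible with 3 against 3). The log2 fold change was -0.33 (standard error 0.11, 95% interval -0.59 to -0.06), with an adjusted p of 0.475 by edgeR's quasi-likelihood test, and it stayed between -0.37 and -0.24 with each library left out in turn, the narrowest such range among the 9. The 12 endothelial genes tested, another source of *Zbtb46*, had a median log2 fold change of 0.34, with 9 above 0 and none whose groups did not overlap. Their summed level was 109 to 119 CPM in MCT2 CO and 108 to 162 CPM in MCT2 KO, and its part in *Zbtb46* was not tested.

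*Batf3*, *Naaa* and *Wdfy4* are genes of cDC1. *Batf3* encodes the basic leucine zipper factor of cDC1, *Naaa* a lysosomal amidase, and *Wdfy4* a BEACH-domain protein needed for cross-presentation. *Batf3* (chromosome 1, 191097847 to 191108945) had 11, 9.69 and 9.63 CPM in MCT2 CO and 10.1, 6.02 and 10.8 CPM in MCT2 KO. MCT2 KO replicate 2 was the low library and the other 5 were close together, and without it the log2 fold change of *Batf3* turned from -0.18 to 0.05. *Naaa* (chromosome 5, 92257659 to 92278170) had 71.8, 82.3 and 77.7 CPM in MCT2 CO and 88.3, 59.8 and 76.2 CPM in MCT2 KO. The difference for *Naaa* was -0.05 log2 units (standard error 0.14), and without MCT2 KO replicate 2 it was 0.09. *Wdfy4* (chromosome 14, 32959547 to 33185508) had 133, 124 and 116 CPM in MCT2 CO and 169, 98.8 and 137 CPM in MCT2 KO. Both the highest and the lowest of the 6 values of *Wdfy4* were MCT2 KO libraries, and its log2 fold change was 0.12 (standard error 0.18, 95% interval -0.29 to 0.53). The adjusted p values were 0.825 for *Batf3*, 0.933 for *Naaa* and 0.858 for *Wdfy4* (edgeR quasi-likelihood test).

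*Fscn1* encodes fascin, the actin-bundling protein of the long processes of mature dendritic cells. The gene lies on the plus strand of chromosome 5, from 142960343 to 142973185. *Fscn1* had 75.5, 82.0 and 101 CPM in MCT2 CO and 81.0, 78.2 and 73.9 CPM in MCT2 KO. Apart from the highest, MCT2 CO replicate 3, the libraries were close to each other, and without that library the log2 fold change went from -0.15 (standard error 0.12, adjusted p = 0.714, edgeR quasi-likelihood test) to -0.02. The 95% interval with all libraries, -0.41 to 0.12, lies within the log2 fold change threshold of 0.58 in both directions.

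*Cd209a* encodes DC-SIGN, a C-type lectin of cDC2 and of monocyte-derived dendritic cells. The gene lies on the minus strand of chromosome 8, from 3743397 to 3748984. *Cd209a* had 16, 14 and 103 counts in MCT2 CO and 22, 20 and 15 counts in MCT2 KO. As CPM this was 0.534, 0.538 and 3.88 in MCT2 CO and 0.922, 0.614 and 0.603 in MCT2 KO. The 103 counts of MCT2 CO replicate 3 (95% Poisson interval 84.1 to 125, counting error only) set that library apart from the next highest, MCT2 KO replicate 1 (13.8 to 33.3). *Cd209a* differed by -1.21 log2 units between the groups (standard error 0.78, adjusted p = 0.657, edgeR quasi-likelihood test), and without MCT2 CO replicate 3 it was 0.40. The tested gene nearest to *Cd209a* over the 6 libraries was *Smoc2* (root-mean-square difference 0.316 log2 units), followed by *Dpt* (0.369) and *H4c4* (0.376). *Smoc2* and *Dpt* encode matrix proteins of fibroblasts. *Dpt* had 20.1 CPM in MCT2 CO replicate 3 and 3.86 to 5.73 CPM in the other libraries, and the summed level of 10 fibroblast genes was 3448 CPM in that library and 1733 to 2271 CPM in the others. The part of fibroblast RNA in *Cd209a* was not tested.

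*Bcl11a* encodes a zinc finger factor required for pDC and for B cells. It lies on the plus strand of chromosome 11, from 24078056 to 24174123. *Bcl11a* had 30, 54 and 59 counts in MCT2 CO and 25, 18 and 19 counts in MCT2 KO, which came to 1.00, 2.08 and 2.22 CPM and to 1.05, 0.552 and 0.763 CPM. The groups overlapped by a single pair, MCT2 CO replicate 1 and MCT2 KO replicate 1 (exact permutation test, two-sided, p = 0.2). The log2 fold change was -1.17 (standard error 0.39, 95% interval -2.06 to -0.28, adjusted p = 0.444, edgeR quasi-likelihood test), and it ranged from -1.46 to -0.95 with each library left out. The nearest genes were *Derl3* (root-mean-square difference 0.191 log2 units), *Cacna1g* (0.201) and *Cd7* (0.204), and *Cd7* is itself on the cDC2 list.

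B-cell genes are given here because B cells make *Bcl11a*. Of 10 B-cell genes tested, 8 had a log2 fold change below 0 and none was called by edgeR's quasi-likelihood test. In 3 of the 10 (30%), MCT2 KO lay wholly below MCT2 CO, compared with 8.77% of all genes. One of the 10, *Cd79a*, a chain of the B-cell receptor complex, was named after its values were seen. *Cd79a* had 2.1 ± 1.20 CPM in MCT2 CO and 0.508 ± 0.0829 CPM in MCT2 KO (SD, n = 3). Its difference was -2.02 log2 units (adjusted p = 0.370 by edgeR's quasi-likelihood test and 0.0152 by DESeq2). *Cd79b*, on the same list, differed by -0.14 log2 units (standard error 0.63), and the 2 genes above 0 reached 0.27 at most. The B-cell list summed to 34.3 to 40.9 CPM in MCT2 CO and 25.8 to 36.5 CPM in MCT2 KO. *Fcer2a* and *Fcmr* had too few counts to pass the filter. In DESeq2 run on every gene that had a count, their adjusted p values were 0.0221 and 0.0152. *Fcmr* had 4, 22 and 12 counts in MCT2 CO and 0 in every MCT2 KO library. The part of B-cell RNA in *Bcl11a* was not tested.

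**Figure D2:**
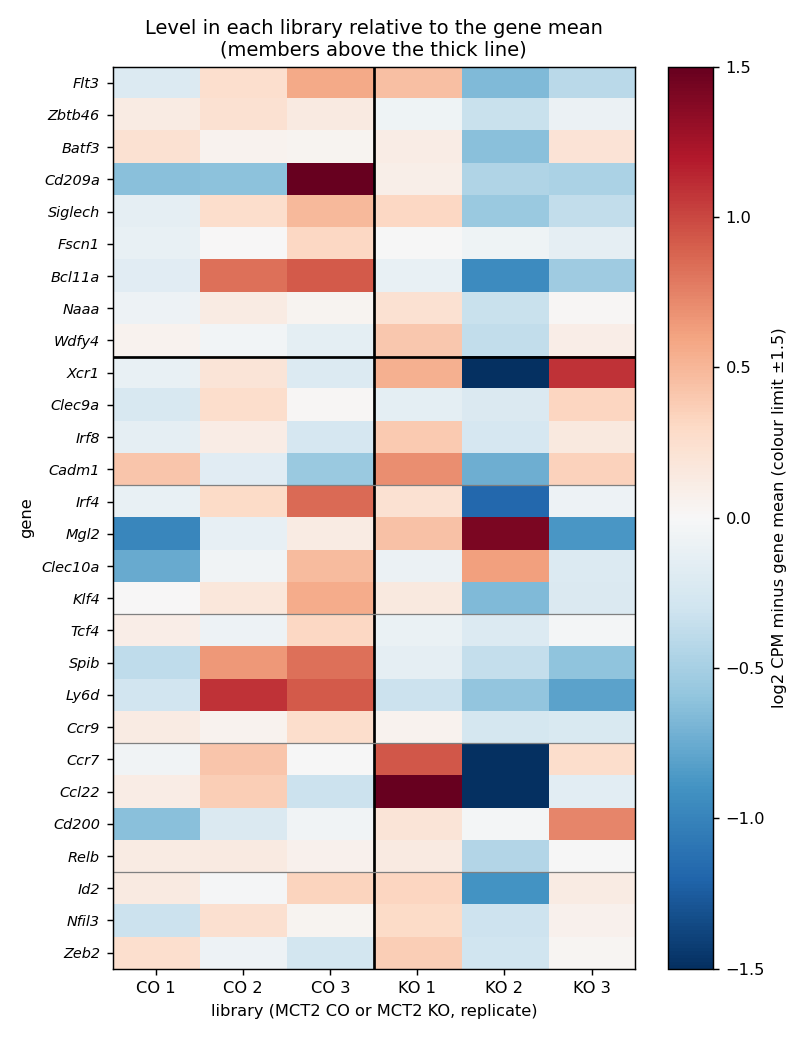
Centred level of each gene (log2 CPM minus the gene's mean over the 6 libraries, colour limit ±1.5) in the MCT2 CO and MCT2 KO libraries, with the 9 members above the thick line and defining genes of cDC1, cDC2, pDC, mature dendritic cells and their development below it. *Flt3* and *Siglech* have closely similar patterns (root-mean-square difference 0.0844), and MCT2 KO replicate 2 is low for most genes but the highest library for *Mgl2* and *Clec10a*.

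The extremes of the 9 genes fell mostly in 2 libraries. MCT2 KO replicate 2 held the lowest value for 7 of the 9 (77.8%), compared with 22.7% of all genes, the exceptions being *Cd209a* and *Fscn1*. MCT2 CO replicate 3 held the highest value for 5 of the 9 (55.6%), compared with 24.9% of all genes, and these were *Flt3*, *Cd209a*, *Siglech*, *Fscn1* and *Bcl11a*. Lists of other leukocytes differed in where that library stood. The 12 T-cell genes summed to 19.5 CPM in MCT2 KO replicate 2 and to 52.7 to 113 CPM in the other libraries. The 10 B-cell genes tested summed to 25.8 CPM there and to 32.0 to 40.9 CPM in the other libraries. The macrophage sum was also lowest there, at 7464 CPM, but close to the 7793 CPM of MCT2 CO replicate 3. The monocyte sum of 2316 CPM was exceeded only by MCT2 CO replicate 3 (2517 CPM), and the neutrophil and NK-cell sums, 114 and 41.4 CPM, were not the lowest. With MCT2 CO replicate 3 and MCT2 KO replicate 2 both left out, a choice made after seeing the data, the median log2 fold change of the 9 genes was 0.02, with 4 below 0. *Zbtb46* was then at -0.25 and *Bcl11a* at -0.75.

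**Figure D3:**
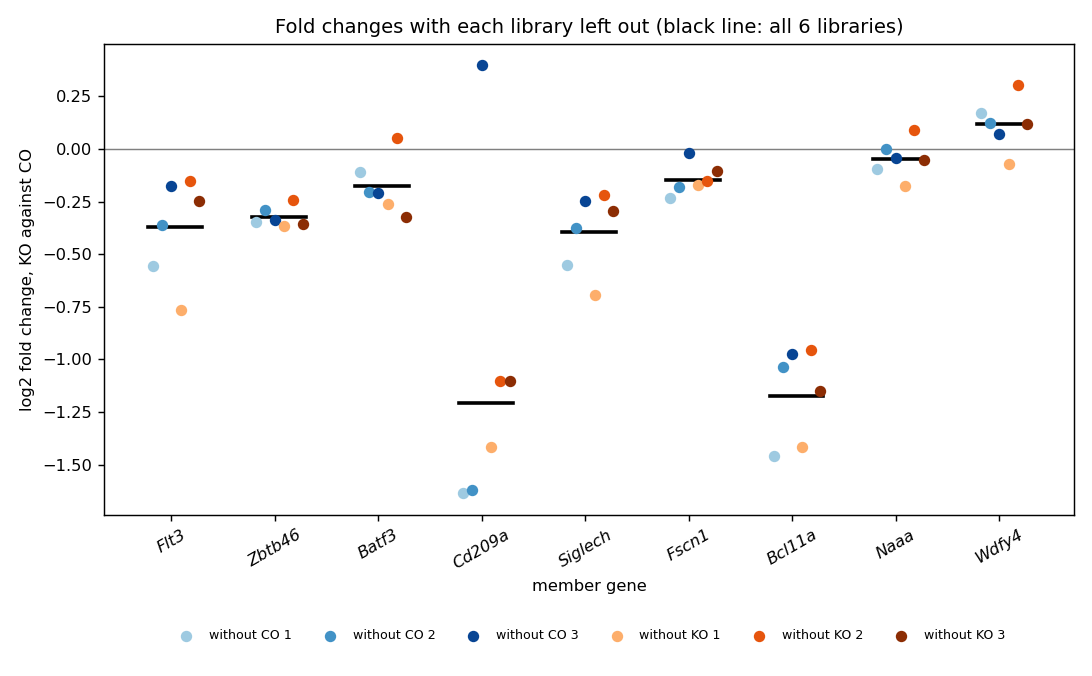
Log2 fold change of each dendritic-cell gene (MCT2 KO against MCT2 CO) with all 6 libraries (black line) and with each library left out in turn (coloured points). *Zbtb46* stays between -0.37 and -0.24, whereas *Cd209a* goes from -1.21 to 0.40 without MCT2 CO replicate 3.

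A further 87 genes of dendritic cells were listed beside the 9, and 76 of them passed the filter on low counts. None was called by edgeR's quasi-likelihood test (smallest adjusted p = 0.430) and none reached an adjusted p of 0.05 by DESeq2. Their median log2 fold change was 0.02, with 42 above 0 and 34 below. The groups did not overlap in 7 of the 76 (9.21%), below the 15.8% of all genes.

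Of 12 cDC1 genes tested, 8 had a log2 fold change above 0 and 4 below, with a median of 0.18 and no gene whose groups did not overlap. That median ranged from 0.0167 (without MCT2 KO replicate 3) to 0.285 (without MCT2 KO replicate 2) with a library left out, and with limma-voom it was -0.0017. *Xcr1*, the chemokine receptor of cDC1, had 2.94, 3.65 and 2.75 CPM in MCT2 CO and 4.61, 1.07 and 6.83 CPM in MCT2 KO. The MCT2 KO libraries held both ends of the range of *Xcr1*. *Clec9a*, a receptor for dead cells, had 1.1 ± 0.204 CPM in MCT2 CO and 1.08 ± 0.245 CPM in MCT2 KO (SD, n = 3). *Irf8* and *Cadm1*, which macrophages also make, had log2 fold changes of 0.20 (standard error 0.17) and 0.27 (standard error 0.36).

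Of 11 cDC2 genes tested, 5 were above 0 and 6 below, with a median log2 fold change of -0.10. *Irf4*, the transcription factor of cDC2, had 5.17, 6.85 and 10.1 CPM in MCT2 CO and 6.54, 2.42 and 5.30 CPM in MCT2 KO, which differed by -0.64 log2 units (standard error 0.38, adjusted p = 0.631, edgeR quasi-likelihood test). *Klf4*, also a factor of macrophages, had 234 ± 48.2 CPM in MCT2 CO and 169 ± 47.0 CPM in MCT2 KO (SD, n = 3). The lectin genes *Mgl2* and *Clec10a*, shared with alternatively activated macrophages, were highest in MCT2 KO replicate 2, at 33.8 and 7.58 CPM, the library that was lowest for *Irf4*. The *Cd209a* relatives *Cd209c*, *Cd209d* and *Cd209e* had at most 8 counts in any library and were not tested.

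Of 15 pDC genes tested, 5 were above 0 and 10 below, with a median log2 fold change of -0.15. With a library left out the median ranged from -0.24 (without MCT2 CO replicate 1) to -0.0284 (without MCT2 KO replicate 2), and without both MCT2 CO replicate 3 and MCT2 KO replicate 2 it was 0.0697. The defining genes *Tcf4*, *Spib*, *Ly6d* and *Ccr9* were all below 0. *Ly6d*, a surface marker of early lymphoid cells and pDC precursors, had 0.434, 1.23 and 1.09 CPM in MCT2 CO and 0.419, 0.338 and 0.281 CPM in MCT2 KO, so its groups did not overlap, although MCT2 CO replicate 1 was close to MCT2 KO replicate 1. The fitted difference was -1.39 log2 units (standard error 0.45, adjusted p = 0.442, edgeR quasi-likelihood test). *Spib*, a factor of pDC and B cells, differed by -0.84 log2 units (standard error 0.36), *Tcf4*, which stromal cells also express, by -0.23 (standard error 0.11), and *Ccr9*, a gut-homing chemokine receptor, by -0.29 (standard error 0.15). *Lag3*, an inhibitory receptor also of T cells, had the opposite sign, with 15.3 ± 3.82 CPM in MCT2 CO and 26.0 ± 6.24 CPM in MCT2 KO (SD, n = 3, log2 fold change 0.76, adjusted p = 0.430, edgeR quasi-likelihood test), and is named because its groups did not overlap at an unadjusted p under 0.05. *Cox6a2*, *Smim5* and *Upb1* had 0 counts in all libraries and all their exons fall within the spans of other genes.

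Of 19 genes of mature dendritic cells tested, 12 were above 0 and 7 below, with a median log2 fold change of 0.06. *Ccr7*, which guides mature dendritic cells to lymph nodes, had 13.8, 19.1 and 14.3 CPM in MCT2 CO and 27.5, 4.85 and 17.2 CPM in MCT2 KO. *Ccl22*, a chemokine for regulatory T cells, had 6.77, 8.08 and 5.00 CPM in MCT2 CO and 17.9, 2.15 and 5.62 CPM in MCT2 KO. For both genes MCT2 KO replicate 1 was the highest library and MCT2 KO replicate 2 the lowest, with the MCT2 CO libraries between them. *Fscn1* did not share this pattern. *Cd200*, a ligand that restrains myeloid cells, had 1.88 ± 0.382 CPM in MCT2 CO and 2.91 ± 0.841 CPM in MCT2 KO, with groups that did not overlap (log2 fold change 0.63, standard error 0.28, adjusted p = 0.539, edgeR quasi-likelihood test). The other genes of this list whose groups did not overlap had MCT2 KO below MCT2 CO: *Il4i1*, an amino acid oxidase, at -0.46 (standard error 0.28) and *Nudt17* at -0.40 (standard error 0.25). *Relb*, an NF-κB subunit, was at -0.19 (standard error 0.14).

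Of 20 genes of FLT3 signaling and dendritic-cell development tested, 12 were above 0 and 8 below, with a median log2 fold change of 0.01. Scaled to the macrophage list, which put the median of all genes at -0.10, the medians of the mature and development lists turned to -0.14 and -0.12. *Id2*, needed for cDC1, *Nfil3*, upstream of cDC1 commitment, and *Zeb2*, which favours pDC and macrophages, had log2 fold changes of -0.22 (standard error 0.27), 0.03 (standard error 0.18) and 0.08 (standard error 0.19). *Csf2rb*, the shared chain of the receptor for GM-CSF, had 166 ± 23.7 CPM in MCT2 CO and 221 ± 40.6 CPM in MCT2 KO (SD, n = 3), with groups that did not overlap (log2 fold change 0.41, adjusted p = 0.497, edgeR quasi-likelihood test). *Csf2rb* is uncertain, since its neighbour *Csf2rb2* is nearly identical in sequence and reads may be split between them. For *Csf2rb2* the log2 fold change was 0.45. The other gene of this list whose groups did not overlap, *Lnx2*, had MCT2 KO below MCT2 CO (-0.21, standard error 0.12).

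**Figure D4:**
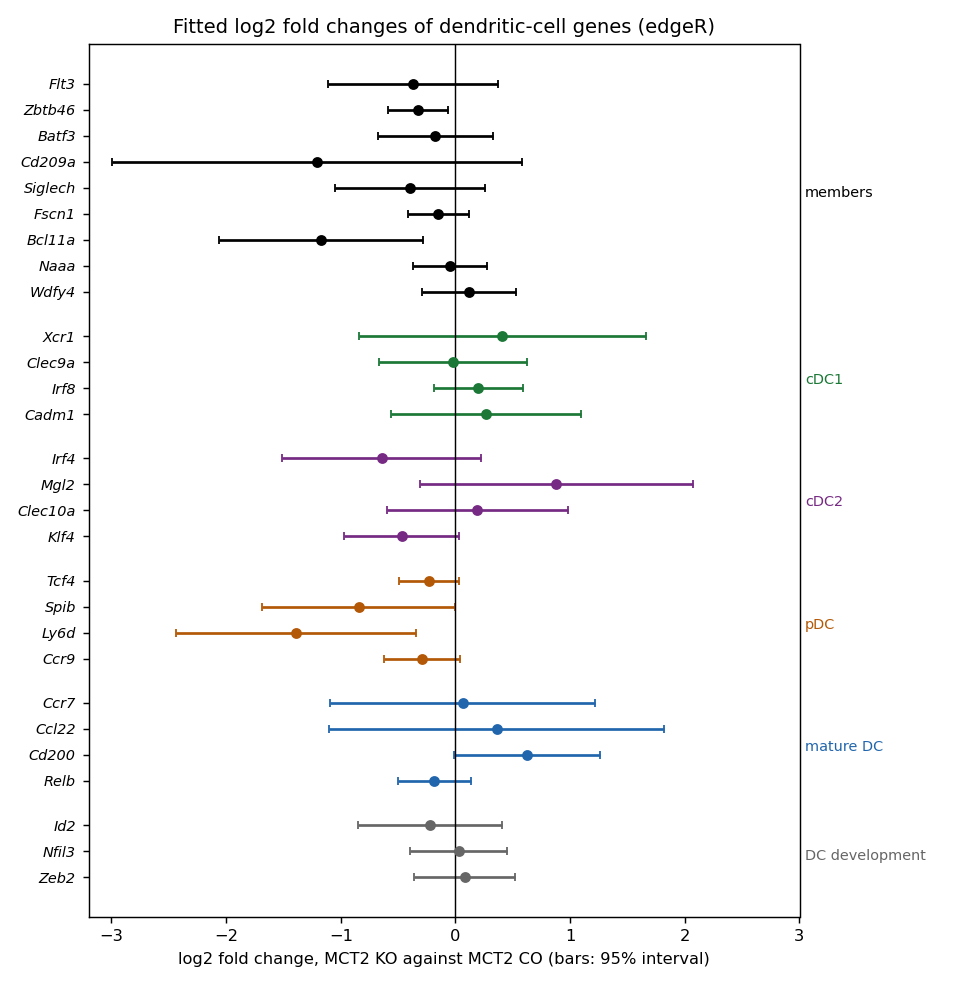
Fitted log2 fold change (MCT2 KO against MCT2 CO, edgeR) with its 95% interval for the 9 dendritic-cell identity genes (black) and the defining genes of each dendritic-cell list (coloured by list). Among the 9, the intervals of *Zbtb46* and *Bcl11a* lie below 0 before adjustment, and those of the cDC1 genes all include 0.

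Markers of other cells that can enter a CD11b+ preparation were described in the same way. Of 14 macrophage genes, 13 had a log2 fold change above 0 (median 0.21), with TMM scaling, and none had groups that did not overlap. The 10 monocyte genes had a median of 0.02 and the 12 T-cell genes of -0.02. Of 8 NK-cell genes, 7 were below 0 (median -0.42) and 4 had groups that did not overlap, with sums of 39.2 to 64.8 CPM in MCT2 CO and 41.4 to 74.4 CPM in MCT2 KO. The 10 fibroblast genes were all below 0 (median -0.77), with MCT2 KO sums of 1733 to 1849 CPM wholly below the MCT2 CO sums of 2076 to 3448 CPM. The 8 neutrophil genes tested had a median of 1.19, and 5 had MCT2 KO wholly above MCT2 CO (7.07% of all genes). Of the epithelial list, 2 of 10 genes were tested, *Epcam* and *Cdh1*, which summed to 13.7 to 20.8 CPM in MCT2 CO and 18.4 to 33.2 CPM in MCT2 KO. *Cdh1*, the gene of E-cadherin, had 15.9 ± 3.64 CPM in MCT2 CO and 23.2 ± 7.73 CPM in MCT2 KO (SD, n = 3), and the keratin genes *Krt8*, *Krt18*, *Krt19* and *Krt7* had at most 5 counts in any library. None of these genes was called by edgeR's quasi-likelihood test. Among genes that passed the filter, DESeq2 called 5 neutrophil genes (*S100a9* among them, adjusted p = 0.000366) and 3 fibroblast genes. It also called 1 NK-cell gene and 1 B-cell gene of those. The B-cell genes *Fcmr* and *Fcer2a*, which did not pass the filter, had DESeq2 adjusted p values of 0.0152 and 0.0221. The 2 genes with the highest mean CPM on each of the lists with several genes whose groups did not overlap had these log2 fold changes. The neutrophil genes *Csf3r* and *Mmp9* were at 0.11 (standard error 0.35) and 0.33 (standard error 0.61), and the B-cell genes *Ebf1* and *Cd79b* at -0.18 (standard error 0.14) and -0.14 (standard error 0.63). The NK-cell genes *Klrk1* and *Prf1* were at -0.03 (standard error 0.34) and 1.119 (standard error 0.34), and the fibroblast genes *Col3a1* and *Col1a2* at -0.76 (standard error 0.21) and -0.23 (standard error 0.16). Their part in the dendritic-cell genes was not tested.

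**Figure D5:**
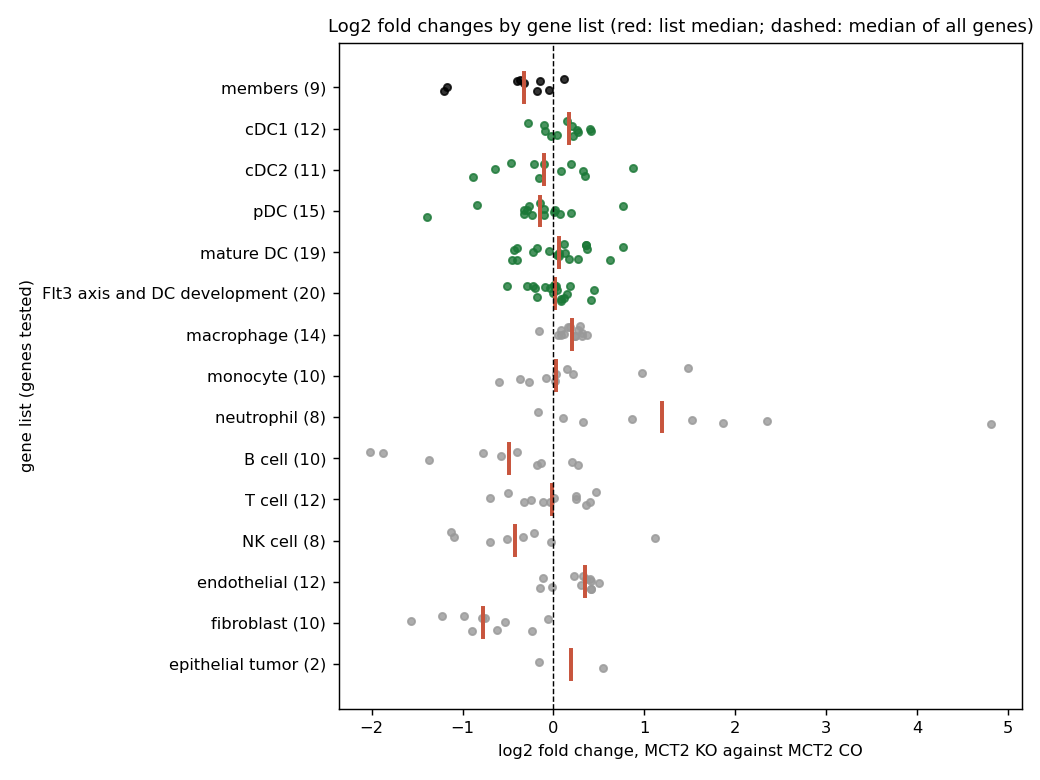
Fitted log2 fold changes (MCT2 KO against MCT2 CO) of the genes tested in each list, with the 9 members in black, other dendritic-cell lists in green and other cell types in grey, and with red lines at list medians and a dashed line at the median of all genes. The members' median is -0.33, those of the other dendritic-cell lists lie between -0.15 and 0.18, and the fibroblast and neutrophil lists lie farthest out at -0.77 and 1.19.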

How the data were processed

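Poly-A RNA of 6 preparations of CD11b+ cells was sequenced from stranded libraries. According to the methods and the submitters' processing notes, the authors checked reads with FastQC 0.12.0 and MultiQC 1.28, aligned them with STAR 2.7.11b to GRCm38, counted them with featureCounts 2.1.1 and deposited raw counts per gene, unnormalized and unpooled. The annotation and strand setting are not given in the sources used here. Every listed length equals a whole gene span, and of 475 protein-coding genes wholly inside an opposite-strand gene, 474 had 0 counts, so reads in overlapping spans were lost. Listed positions match GENCODE M21 for 2.4% of shared identifiers (span lengths for 98.1%), and positions printed are from GENCODE M21.

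Counts were analysed with edgeR 4.0.16 in R 4.3.3: filterByExpr (minimum count 10, minimum total count 15), TMM, and the quasi-likelihood test without covariates. Adjusted p values follow Benjamini and Hochberg across 13485 genes. Standard errors were derived from the F statistic. Single values were compared by exact permutation. Samples were grouped by their titles. The labels do not state that each library came from a separate mouse. DESeq2 1.42.0 and limma 3.58.1 served as alternatives. Simulated counts with known changes in 200 genes were tested: of changes by 1 log2 unit, edgeR recovered 72.4% among 13392 genes. Of the simulated calls, 2.42% were false by edgeR and 11.2% by DESeq2. The simulation drew each gene independently, at all levels, and held no shifts of whole libraries shared by many genes. These shares therefore do not give the power or the rate of false calls for these libraries or for genes with few counts. No replicate pair was alike within sampling noise.

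The 9 genes, the lists and the motifs were chosen with earlier results of these data known. Named genes are the 9, *Slc16a7*, the fixed defining genes of each list, dendritic-cell list genes called by edgeR or DESeq2 or whose groups did not overlap at an unadjusted p under 0.05, the 2 most abundant genes (by mean CPM) of each list of other cells with several genes whose groups did not overlap, and, for members ranging over more than 1 log2 unit, the 3 nearest profiles (prior count 2). *Itgam*, *C1qa*, *Mertk*, *Cox6a2*, *Smim5*, *Upb1*, *Il4i1*, *Nudt17*, *Lnx2*, *Epcam*, *Cdh1*, *S100a9*, *Csf2rb2*, *Krt8*, *Krt18*, *Krt19*, *Krt7*, *Cd79a*, *Fcer2a*, *Fcmr* and the *Cd209a* relatives were named after their values were seen.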

Additional observations from a re-analysis of the deposited data

How the results depend on the processing

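No member was called under any alternative run. The number of genes called, 0 in the edgeR test, was 79 with DESeq2 on the same genes (34 higher, 45 lower), 83 with DESeq2 on every gene that had a count (33 higher, 50 lower), 14 when scaled to the macrophage list, 2 without a filter, and 0 to 2 with each library left out. The 1264 genes at an unadjusted p under 0.05 became 289 when scaled to the macrophage list, and 787 to 1576 with each library left out. Both MCT2 CO replicate 3 and MCT2 KO replicate 2 were left out in an alternative added after seeing the data. It called 10 genes, and the members' median was 0.0157. In that run the groups did not overlap for 3 members and for 40.3% of all genes. With each library left out, 1 to 4 members did not overlap (4 without MCT2 KO replicate 1), although 22.1% to 31.7% of all genes then did the same, and the median of the members ran from -0.37 to -0.15, that of the cDC1 list from 0.0167 to 0.285, that of the pDC list from -0.24 to -0.0284, that of the development list from -0.0973 to 0.132, that of the cDC2 list from -0.50 to 0.12 and that of the mature dendritic-cell list from -0.26 to 0.33. Scaling to the macrophage list moved the median of all genes to -0.10, and relative to it *Wdfy4* was at 0.0434.

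Signs turned for *Batf3* without MCT2 KO replicate 2 (0.0506), for *Naaa* without MCT2 KO replicate 2 (0.0918) or MCT2 CO replicate 2 (0.0014), for *Cd209a* without MCT2 CO replicate 3 (0.40), and for *Wdfy4* without MCT2 KO replicate 1 (-0.0696) or when scaled to the macrophage list (-0.0575). Over the omissions of each library *Batf3* ran from -0.325 to 0.0506, *Cd209a* from -1.635 to 0.397, *Naaa* from -0.176 to 0.0918 and *Wdfy4* from -0.0696 to 0.303. Without both libraries *Flt3* was at 0.0421, *Batf3* at 0.0157, *Cd209a* at 0.50 and *Naaa* at 0.0942. The cause was not tested. *Slc16a7* passed both thresholds in DESeq2 (log2 fold change -1.05 and -1.04, adjusted p = 0.00953 with the filter and 0.00908 without it). The labels do not say whether the replicate numbers of the titles pair the libraries. Deviations of same-numbered libraries from their group means correlated at 0.216, -0.247 and -0.161 across genes. Those of differently numbered libraries correlated between -0.212 and 0.292. Deviations sum to 0 within each group, so these correlations cannot decide whether libraries were paired. With a replicate block 0 genes were called and 1048 had an unadjusted p under 0.05, with *Zbtb46* at -0.33 and *Bcl11a* at -1.14, and no call changed. Few counts in most libraries limited *Cd209a*, *Bcl11a*, *Ly6d* and *Flt3l*. For *Flt3l*, reads in the overlapping span were also dropped from the counts.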
